A study of Homo sapiens with 6 samples.

Results

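Keratins are the intermediate filament proteins of epithelial cells. The 8 genes described here, KRT8, KRT18, KRT7, KRT19, KRT80, KRT81, KRT15 and KRT17, were chosen by gene symbol as the keratins of luminal and simple epithelium, and all 8 are among the 26364 symbols that the count files list. Their RNA was measured by sequencing of polyadenylated transcripts in ZR-75-30, an established breast adenocarcinoma line. All cells carried a lentivirus: in 3 libraries the empty vector pLVX (control), in 3 the same vector with CDK12 (pLVX-CDK12), a kinase of transcription elongation. The labels call the libraries of a group biological replicates and do not say whether they came from separate infections, so the p-values measure only the spread between these libraries, which may be technical.

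A keratin filament is built from pairs of unlike chains, each pair made of an acidic type I and a basic type II keratin. KRT8 (type II) and KRT18 (type I) form the first pair to appear in embryonic epithelium and the main pair of simple, 1-layered epithelium, and KRT7 (type II) and KRT19 (type I) join them in ducts and glands such as the breast. These 4 are used in pathology as markers of luminal breast cells. The label covers the other members less well: KRT80 (type II) is found in many epithelia, KRT81 (type II) is a hair keratin, and KRT15 and KRT17 (both type I) are known from basal cells of layered epithelium, with KRT17 also induced in stressed or healing skin.

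Over a short coding stretch the other type II members are close to KRT8, while the other type I members are further from KRT18. The stretches below, each of 36 coding bases, begin at the conserved codons that end the rod domain, the coiled part through which the chains pair. They come from GENCODE 29 transcripts (GRCh38) and are shown to compare the genes of each type and to show which genes reads can confuse. Capitals mark bases that differ from KRT8 in the type II genes, and from KRT18 in the type I genes.
KRT8: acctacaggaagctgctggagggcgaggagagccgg
KRT7: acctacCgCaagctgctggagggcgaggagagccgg
KRT80: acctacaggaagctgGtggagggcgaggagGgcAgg
KRT81: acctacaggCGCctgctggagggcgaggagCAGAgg
KRT86: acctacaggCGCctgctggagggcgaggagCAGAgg
KRT18: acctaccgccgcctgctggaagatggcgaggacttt
KRT19: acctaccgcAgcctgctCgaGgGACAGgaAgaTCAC
KRT15: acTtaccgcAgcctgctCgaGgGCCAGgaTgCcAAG
KRT17: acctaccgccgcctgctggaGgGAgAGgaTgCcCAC
Within this stretch KRT7 differs from KRT8 at 2 bases, KRT80 at 3 and KRT81 at 7, while KRT8 and KRT18 differ at 15. From KRT18, KRT17 differs at 10 bases, KRT19 at 13 and KRT15 at 14. These counts are against KRT18 only and do not show how alike KRT17, KRT19 and KRT15 are to each other. KRT81 and KRT86, another hair keratin, are the same there, and 94.2% of their aligned coding bases are identical. For comparison, the coding bases of KRT8 and KRT7 are 77.0% identical and those of KRT19 and KRT17 76.0%.

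Such likeness bears on the counts, because the labels give reads of 100 bases while the treatment of reads that fit several places and the strand setting of the counting were not stated (the library kit keeps the strand). Of all 100-base windows of the KRT81 transcript, 30.3% also occur in a transcript of another gene, and nearly all of these are in KRT86 (29.4% of all windows). For KRT18 the share is 18.4%, all in KRT8 transcripts, since the genes overlap on opposite strands. For KRT8 it is 7.25%, in KRT8 pseudogenes, and for KRT7 it is 7.67%, in the antisense gene KRT7-AS. The share is 0.353% for KRT17, and no window of KRT19, KRT80 or KRT15 is shared. GENCODE lists 50 pseudogenes of KRT8 and 67 of KRT18, of which the count files list 1 each; these held at most 1 count (KRT8P41) and 3 counts (KRT18P55) in any library.

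Libraries held 21178163 to 26543653 counts, and 14665 genes passed the filter on low counts and were tested. CDK12 itself was at 72.8 to 81.8 CPM (TMM-scaled counts relative to library size) with the empty vector and at 2009 to 2240 CPM with the CDK12 virus, so each library matched its label. All 13 markers of luminal epithelium passed the filter. Their summed level was 3546 to 3734 CPM in control libraries against 3339 to 3478 CPM with CDK12. Of these markers 1 was called higher (MUC1) and 6 lower, where 16.2% of all genes tested were called higher and 18.9% lower. Of the 6, TFF3 was not called with upper-quartile factors, total counts or DESeq2 or without control replicate 3 or CDK12 replicate 2 (highest adjusted p 0.382), and GATA3 is described below. Of 10 basal markers that are not members 5 passed, with sums of 18.4 to 19.1 and 14.2 to 15.1 CPM (1 higher and 3 lower). TP63, 1 of these 3, reached the filter only through the controls and so had to differ. KRT5 and KRT14 had means under 0.1 CPM in both groups. Of 13 mesenchymal markers 5 passed, with sums of 139 to 150 and 131 to 143 CPM (1 higher and 3 lower), of which FN1 and COL1A1 made up most. COL3A1, 1 of these 3 lower, also reached the filter only through the controls and so had to differ. Of 6 blood cell markers 2 passed, PTPRC (lower) and CD14 (higher, but not with DESeq2, with the replicate block or without control replicate 1 or 3 or CDK12 replicate 1 or 3), each in all libraries of 1 group only, with sums of 3.45 to 3.60 and 1.44 to 1.67 CPM, and HBB was at 0 in all libraries. The luminal, basal and blood cell sums moved with the groups, and their part in the keratin results was not tested. In bulk RNA, fewer cells of a type and less RNA per cell cannot be told apart.

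The simple epithelial keratins were among the most abundant messages of this line. By mean CPM over the 6 libraries KRT8 ranked 25th of the 14665 tested genes, KRT19 42nd, KRT7 43rd and KRT18 52nd. KRT80 ranked 841st, while KRT81 (9692nd), KRT15 (10358th) and KRT17 (14085th) were scarce. Per kilobase of transcript, the levels in the controls were 1104 ± 12.4 for KRT8, 1055 ± 40.9 for KRT19, 919 ± 25.7 for KRT18 and 866 ± 22.2 for KRT7 (CPM per kilobase, SD, n = 3). On the same scale KRT80 was at 66.6 ± 1.64, KRT81 at 5.79 ± 0.42, KRT15 at 2.88 ± 0.16 and KRT17 at 0.559 ± 0.06. The ranges of KRT8 (1089 to 1112) and KRT19 (1031 to 1102) overlapped in the controls; all other neighbours in this order were apart. With CDK12, KRT19 stood first at 999 ± 25.8 CPM per kilobase and KRT8 second at 959 ± 14.7, again with overlapping ranges.

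Of the 8 keratins, 7 reached the filter in both groups, and of these 5 fell with the CDK12 virus (KRT8, KRT18, KRT7, KRT80 and KRT81) and none rose. The other 2, KRT19 and KRT15, did not pass the test. KRT17, the eighth, reached the filter of 0.42 CPM only through the control libraries and so had to differ; it was called lower, which made 6 of 8, but its call and overlap support nothing here. Across all genes tested, edgeR's quasi-likelihood test called 35.1%, with 16.2% higher and 18.9% lower in the CDK12 libraries at a Benjamini-Hochberg adjusted p of 0.05. In 6 of the 7 keratins the CDK12 libraries lay below all controls, against 23.6% of all genes (45.6% did not overlap in either direction). The median log2 fold change of the 7 was -0.20, that of KRT8, beside 0.00 over all genes tested (-0.24 with KRT17). All 8 estimates were below 0, also with DESeq2 and limma-voom. In the plot of levels by library, the drop is a small step on a high base for the abundant keratins.

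**Figure D1:**
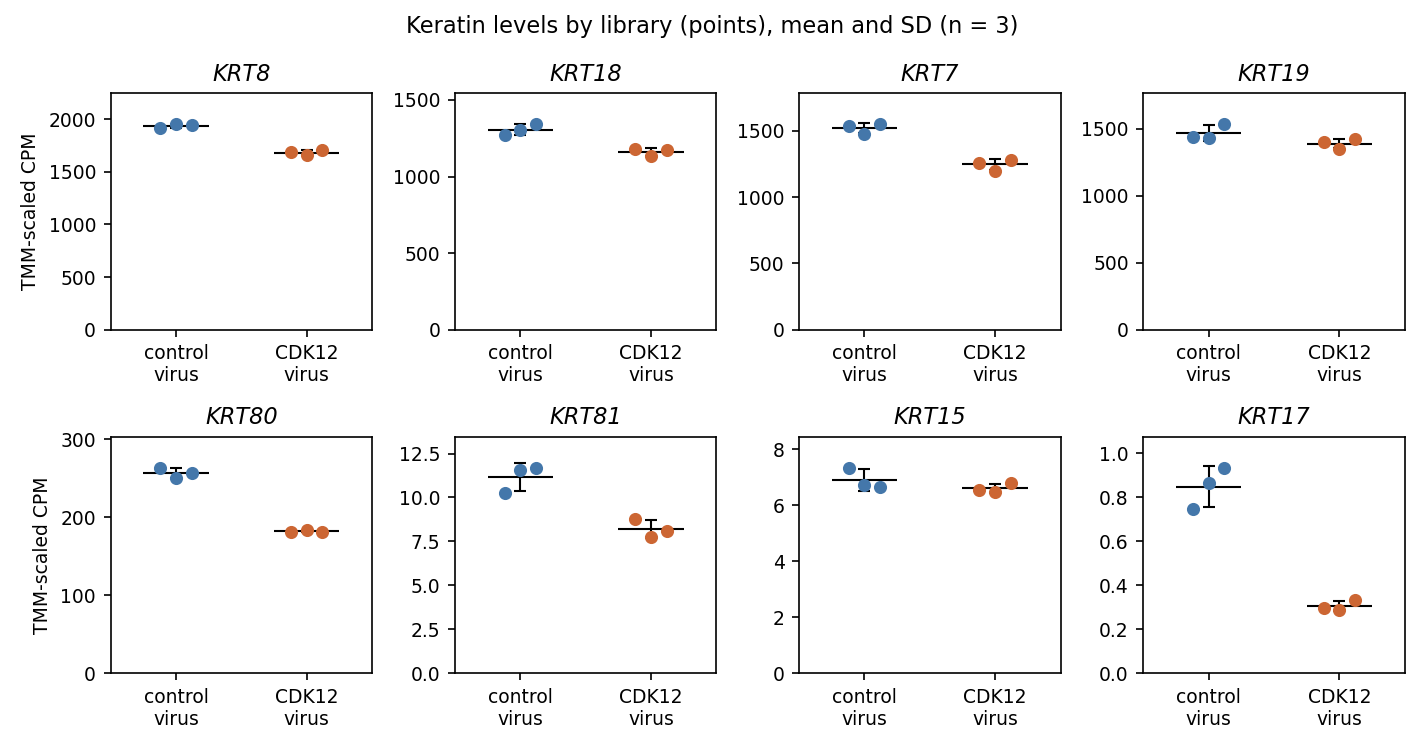
TMM-scaled CPM (vertical axes, linear and starting at 0) of the 8 keratins in each control (blue) and CDK12 (orange) library, with the group mean and SD as black bars (n = 3). KRT8 sits between 1912 and 1951 CPM in the controls and between 1655 and 1706 with CDK12, whereas the KRT15 points of the groups overlap.

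KRT8 and KRT18, the core pair, fell by similar amounts. KRT8 was at 1912, 1951 and 1947 CPM in the control libraries and at 1687, 1655 and 1706 CPM with CDK12. All 3 CDK12 libraries lay below all 3 controls, a fall of 13.1% (log2 fold change -0.20 with an SE of 0.04; adjusted p = 0.000171 by edgeR's quasi-likelihood test). KRT18 was at 1268, 1305 and 1341 CPM in the controls and at 1179, 1131 and 1172 CPM with CDK12. It fell from a mean of 1305 ± 36.5 to 1161 ± 25.9 CPM (log2 fold change -0.17, SE 0.04, adjusted p = 0.00151 by the same test), again without overlap. The spread between control libraries was 1.12% of the mean for KRT8 and 2.80% for KRT18, above the 0.476% and 0.580% that counting error alone would give.

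Of KRT7 and KRT19, the ductal pair, KRT7 fell and KRT19 did not pass the test. The ratio between them, chosen after the values were seen and given with the other ratios, did not overlap between groups. With so few libraries its permutation test could not reach the threshold, so that test cannot decide whether the ratio differs. KRT7 was at 1534, 1475 and 1549 CPM in the controls and at 1260, 1201 and 1280 CPM with CDK12. The groups were well apart, with a fall of 17.9% (log2 fold change -0.29 with an SE of 0.04; adjusted p = 3.12e-06 by edgeR's quasi-likelihood test). KRT19, the smallest keratin, which lacks the usual tail domain, was at 1434, 1433 and 1532 CPM in the controls and at 1397, 1349 and 1419 CPM with CDK12. The CDK12 libraries lay just under the controls, but the difference did not pass the test (log2 fold change -0.08, 95% interval -0.16 to 0.0043; adjusted p = 0.132 by edgeR's quasi-likelihood test). Over 14 alternative settings KRT19 was never called, with log2 fold changes between -0.10 and -0.04.

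KRT80 and KRT81, the type II members outside the simple epithelial group, both fell, with larger point estimates than KRT8 and KRT7. KRT80, a keratin of cell margins and desmosomal plaques, was at 263, 251 and 257 CPM in the controls and at 181, 183 and 181 CPM with CDK12. This fall of 29.2% (log2 fold change -0.50 with an SE of 0.04; adjusted p = 1.35e-10 by edgeR's quasi-likelihood test) had the smallest adjusted p of the 8, and 3.90% of all genes tested fell at least as far. KRT81 had 233, 241 and 288 counts in the controls (10.2 to 11.7 CPM) and 236, 188 and 194 with CDK12 (7.74 to 8.77 CPM). It fell by 26.4% without overlap in CPM (log2 fold change -0.44, SE 0.09, adjusted p = 0.000442 by the same test). Its near copy KRT86 had 45, 49 and 70 counts against 53, 68 and 58 and was not called (log2 fold change -0.01, 95% interval -0.37 to 0.35), and reads of these genes may have been exchanged or dropped in counting.

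KRT15 and KRT17, the basal keratins of the set, were scarce in these luminal cells. KRT15 had 167, 140 and 164 counts in the controls and 176, 157 and 163 with CDK12. In CPM the groups overlapped (6.66 to 7.34 and 6.47 to 6.79), and the log2 fold change of -0.06 (95% interval -0.27 to 0.14; adjusted p = 0.654 by edgeR's quasi-likelihood test) had an interval that spans 0. KRT17 had 17, 18 and 23 counts in the controls and 8, 7 and 8 with CDK12. In CPM it was at 0.747 to 0.934 against 0.288 to 0.333, a fitted log2 fold change of -1.46 (SE 0.32, adjusted p = 0.000888 by the same test). No CDK12 library reached the filter's 0.42 CPM, so this gene was tested only because its controls were high, and the p is no support for a change. Counting error alone is 22.7% of the mean for KRT17 in the controls and 36.1% with CDK12. With a filter of 1 CPM in 3 libraries KRT17 was not tested.

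Summed over the 8 genes, keratin RNA was lower with CDK12 in every library. The sum was at 6429, 6434 and 6645 CPM in the controls and at 5720, 5533 and 5773 CPM with CDK12, a mean log2 difference of -0.20. This value shrank to -0.16 with upper-quartile factors and to -0.15 with total counts. The 8 genes held 98.1% to 98.5% of all counts in keratin rows of each library. KRT19 took 21.9%, 21.9% and 22.6% of the keratin counts in the controls and 24.0%, 24.0% and 24.2% with CDK12. The share of KRT7 was 23.4%, 22.5% and 22.9% in the controls and 21.7%, 21.3% and 21.8% with CDK12. That of KRT80 was 3.79% to 4.02% and 3.09% to 3.25%. A share also depends on the other keratins, and the level of KRT19 itself was not called (log2 fold change -0.08). Differences in the shares were not tested.

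Ratios within a library do not depend on the scaling. The ratio of KRT8 to KRT18 counts was 1.51, 1.49 and 1.45 in the controls and 1.43, 1.46 and 1.46 with CDK12. These values overlapped, with a log2 difference of -0.03 (exact two-sided permutation test, p = 0.3). The ratio of type I to type II counts over all keratin genes was 0.729, 0.743 and 0.764 in the controls and 0.825, 0.818 and 0.820 with CDK12. All CDK12 values lay above all controls (log2 difference 0.14, exact two-sided permutation p = 0.1, the smallest that 3 against 3 libraries allow). A further pair of ratios was chosen after the values were seen. KRT19 to KRT7 went from 0.935, 0.971 and 0.989 to 1.11, 1.12 and 1.11 (log2 difference 0.21), and KRT80 to KRT8 from 0.138, 0.129 and 0.132 to 0.107, 0.111 and 0.106 (log2 difference -0.30), each without overlap and with an exact permutation p of 0.1. Adjusted over the 4 ratios by Benjamini-Hochberg, p was 0.133 for the 3 that did not overlap and 0.300 for KRT8 to KRT18. No ratio could pass 0.05 with 3 against 3 libraries, so these p-values cannot decide whether the ratios differ.

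**Figure D2:**
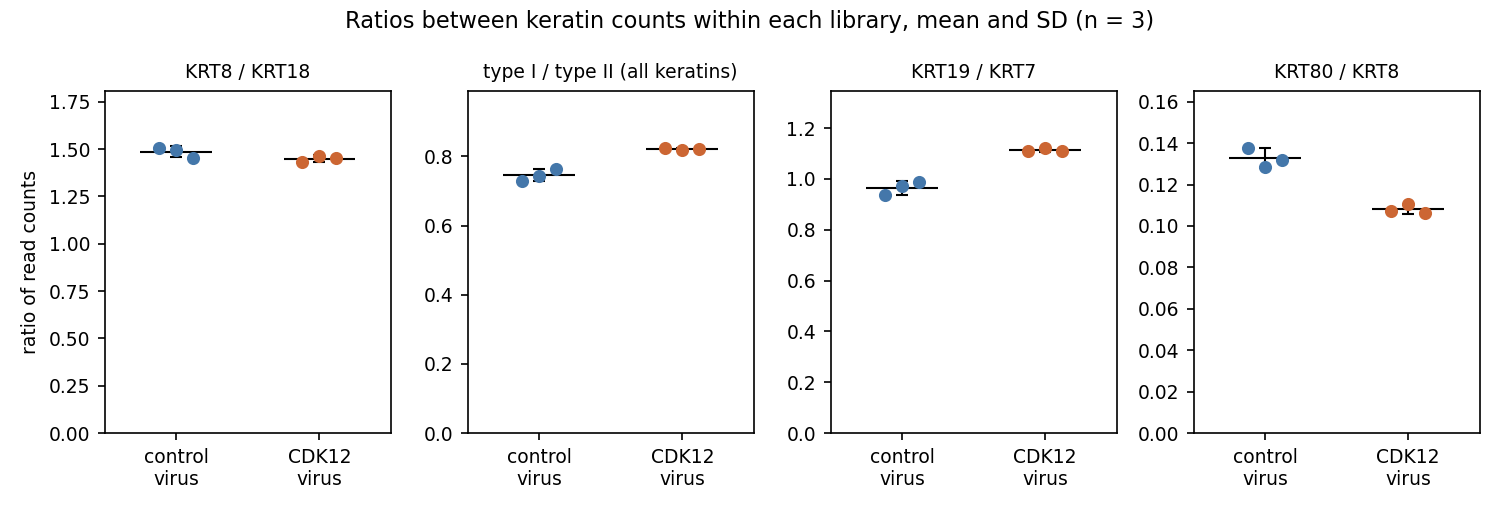
Ratios of read counts between keratins (vertical axes, linear and starting at 0) in each control (blue) and CDK12 (orange) library, with mean and SD (n = 3). The KRT8 to KRT18 ratio overlaps between groups, while type I to type II lies between 0.729 and 0.764 in the controls and between 0.818 and 0.825 with CDK12.

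The genes lie in the usual keratin clusters. KRT80, KRT7, KRT81, KRT8 and KRT18 follow each other in this order on chromosome 12 (RefSeq, GRCh38.p14), with KRT18 the only type I gene of that cluster, and KRT15, KRT19 and KRT17 on chromosome 17. All 5 members on chromosome 12 fell, with log2 fold changes from -0.50 for KRT80 to -0.17 for KRT18, whereas KRT19 and KRT15 on chromosome 17 did not pass the test. Type and cluster coincide among the members apart from KRT18, whose change was close to that of its neighbour KRT8. Keratins outside the set did not keep to this split of the clusters. KRT16, which neighbours KRT17, fell (log2 fold change -1.92), and KRT86, which overlaps KRT81, was not called (-0.01). A difference between the clusters was not tested.

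The remaining keratins were mostly silent. The files list 55 keratin genes besides 9 pseudogene and antisense rows, and 16 of the 55 passed the filter: the 8 members and 8 others. Of these others 4 fell, KRT16, KRT2, KRT4 and KRT75, and none rose, where 18.9% of all genes tested fell and 16.2% rose. KRT86 (log2 fold change -0.01), KRT3 (0.52), KRT23 (-0.08) and KRT10 (-0.14) were not called. KRT4, a type II keratin of wet layered epithelium, had 1436, 1268 and 1514 counts in the controls and 1102, 969 and 915 with CDK12 (log2 fold change -0.64, SE 0.05). KRT16, the stress keratin that neighbours KRT17 and is 81.2% identical to it in aligned coding bases, had 69, 56 and 68 counts against 20, 22 and 14 (log2 fold change -1.92, SE 0.20). KRT2, a keratin of the upper epidermis, had 71, 70 and 72 counts against 45, 31 and 26 (log2 fold change -1.20, SE 0.18). In all 3 the groups did not overlap, and the adjusted p by edgeR's quasi-likelihood test was 6.84e-06 at most.

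KRT75, a keratin of the hair follicle, had 85, 73 and 100 counts against 66, 66 and 75 (log2 fold change -0.45). It passed edgeR's test with an adjusted p of 0.0143 but not DESeq2's (0.0771), and not without control replicate 3 (0.0761) or CDK12 replicate 1 (0.0701). KRT23 (34.7 ± 2.91 and 33.0 ± 0.21 CPM), KRT10 (11.7 ± 1.03 and 10.6 ± 0.66 CPM) and KRT3 (0.554 ± 0.14 and 0.805 ± 0.27 CPM) overlapped between groups and were not called. Of the 25 type I genes outside the set 3 were tested, with 1 lower, and of the 22 type II genes 5, with 3 lower. The defining basal keratins KRT5, KRT14, KRT6A and KRT6B had at most 5 counts in any library and were not tested.

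**Figure D3:**
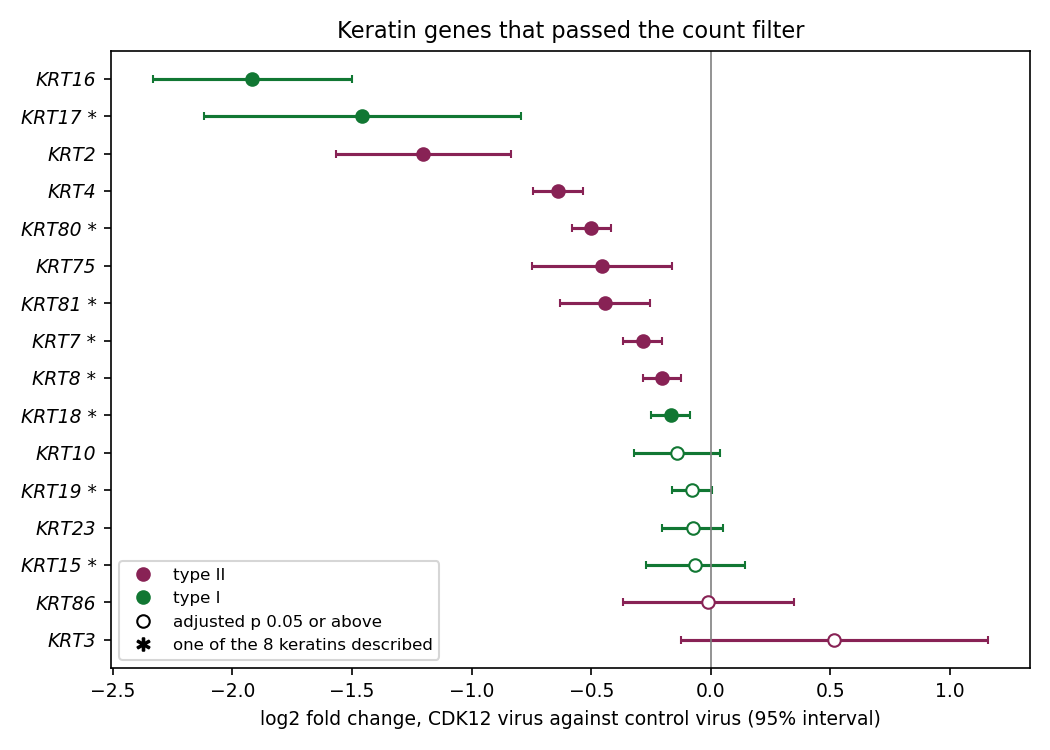
Log2 fold change of CDK12 against control virus (horizontal axis) with its 95% interval for the 16 keratin genes that passed the filter, type II in purple and type I in green, filled where the adjusted p was under 0.05. The 10 filled points all lie below 0, from -1.92 for KRT16 to -0.17 for KRT18.

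Filaments are anchored at cell borders by desmosomes and at the cell base by hemidesmosomes, and lists of these parts were read from the same fit. Of 12 desmosome genes tested 4 were called lower and 1 higher, and the median of their log2 fold changes was -0.16. Both the count and the median include DSG1 and DSC1, which the filter admitted only through the controls. Among all genes tested 35.1% were called, so the share called here is near the background, as it also is for the adaptor and transcription factor lists below. JUP, the gene of plakoglobin, fell from 310 ± 8.22 to 258 ± 6.86 CPM, and PKP3, a plakophilin, from 173 ± 7.90 to 141 ± 6.23 CPM. The epidermal cadherin genes DSG1 (0.660 ± 0.15 to 0.109 ± 0.09 CPM) and DSC1 (0.742 ± 0.10 to 0.240 ± 0.01 CPM) were called lower, but both reached the filter only through the controls and so had to differ, and DSG1 with CDK12 was at about the 0.112 to 0.144 CPM that 3 counts represent. DSC2 rose from 9.91 ± 0.71 to 11.7 ± 0.78 CPM (adjusted p = 0.0343), a call lost with DESeq2, with the replicate block and without control replicate 2 or 3 or CDK12 replicate 2 or 3 (highest adjusted p 0.164). DSP, the gene of desmoplakin, which ties keratin to the plaque, was at 686 ± 32.8 and 696 ± 37.7 CPM and was not called; it is named after its values were seen.

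Of 13 plakin and hemidesmosome genes 9 fell (18.9% of all genes did) and none rose, with a median of -0.26. LAMB3, a laminin chain, fell from 21.2 ± 1.53 to 15.2 ± 0.23 CPM, and ITGB4, the integrin of the hemidesmosome, from 81.0 ± 4.90 to 56.1 ± 6.07 CPM. CD151, a tetraspanin, fell from 355 to 290 CPM and DST, a plakin, from 455 ± 48.5 to 380 ± 21.0 CPM. EPPK1 and EVPL were also called, but EPPK1 lost its call with DESeq2 (adjusted p = 0.146) and EVPL without CDK12 replicate 1 (0.0602).

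Other intermediate filament genes split. Of 7 tested 3 fell and 1 rose (18.9% and 16.2% of all genes did), with a median of -0.03. The falls were those of the nuclear lamins LMNA (665 ± 14.8 to 587 ± 13.9 CPM), LMNB1 (30.3 ± 1.61 to 24.6 ± 0.44 CPM) and LMNB2 (78.5 ± 1.51 to 67.7 ± 2.95 CPM). NES, the gene of nestin, rose from 2.30 ± 0.41 to 3.65 ± 0.35 CPM. SYNM (109 ± 1.65 and 107 ± 2.66 CPM), SYNC (3.64 ± 0.43 and 4.48 ± 0.58 CPM) and BFSP1 (17.4 ± 1.65 and 18.2 ± 0.79 CPM) were not called, and VIM, the vimentin gene of mesenchymal cells, had means of 0.293 and 0.397 CPM and was not tested.

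Of 25 genes listed as keratin-binding adaptors and modifiers 6 fell and 1, ALB, rose, with a median of -0.04. YWHAH, a 14-3-3 protein gene, fell from 104 ± 1.91 to 81.6 ± 4.41 CPM, and HSPB1, a small chaperone of filaments, had a log2 fold change of -0.38. PPP1CA, a phosphatase subunit gene (-0.26), and EIF3K (-0.20) fell too. ALB, the gene of albumin, was scarce, at 1.04 ± 0.48 CPM in the controls and 1.81 ± 0.18 CPM with CDK12. It was not called with DESeq2 or without control replicate 1 or 2 (highest adjusted p 0.0950). FAM83H was not called with upper-quartile factors or total counts or without control replicate 1 or 3 or CDK12 replicate 2 (highest adjusted p 0.138), nor was AKT1 without control replicate 3 (0.0535). With upper-quartile factors 3 of this list were higher, and with total counts 4.

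Of 20 epithelial transcription factor genes 5 fell and 3 rose, with a median of -0.06. TP63, the master factor of basal and layered epithelium, is among the 5 and in the median. It reached the filter only through the controls and so had to differ (2.26 ± 0.14 and 0.280 ± 0.04 CPM). GRHL3, a grainyhead-like factor, fell from 9.21 ± 0.28 to 5.94 ± 0.84 CPM. RUNX1 fell from 148 ± 2.66 to 131 ± 6.17 CPM. XBP1 (log2 fold change 0.32), EHF (0.18) and TFAP2B (0.15) rose. With total counts SP1 was higher as well. GATA3 and TFAP2A were lower, but neither was called with upper-quartile factors or total counts, which left 3 lower; GATA3 was also not called without control replicate 1 or 3 or CDK12 replicate 1 or 2 (highest adjusted p 0.0954).

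Of 25 epithelial junction genes 15 fell (18.9% of all genes did) and none rose, with a median of -0.17. With upper-quartile factors or total counts CDH1 and ESRP1 were higher. With TMM, CDH1 had an unadjusted p of 0.0372 by edgeR's quasi-likelihood test. Of the 15, the catenin genes CTNNB1 and CTNND1 were not called with upper-quartile factors or total counts. CTNNB1 was also not called without any 1 control replicate (highest adjusted p 0.124). CTNND1 was not called with DESeq2 or without control replicate 1 or 2 or CDK12 replicate 2 or 3 (highest adjusted p 0.195). CLDN1, a claudin of tight junctions, fell from 7.51 ± 0.74 to 3.80 ± 0.69 CPM, CLDN4, another claudin, from 519 to 415 CPM, and SPINT1, an inhibitor of membrane proteases, had a log2 fold change of -0.35. LSR (log2 fold change -0.32) and CLDN3 (-0.33) fell as well. Of 8 cornified envelope and stratification genes tested 4 fell and 2 rose (18.9% and 16.2% of all genes did), with a median of -0.34. IVL, the involucrin gene, is in the count of falls and in the median. It reached the filter in all control libraries and in 1 with CDK12 and so had to differ (1.63 ± 0.30 and 0.364 ± 0.16 CPM). S100A16 fell from 943 ± 9.84 to 586 ± 6.67 CPM, S100A14 from 1307 ± 28.7 to 1092 ± 26.7 CPM and KLK5 from 5.77 ± 0.70 to 3.95 ± 0.53 CPM. TGM3, a transglutaminase gene, rose from 1.81 ± 0.44 to 3.26 ± 0.09 CPM, and S100A9 was called at 0.0462 but lost its call in 8 of 14 alternatives, among them each library left out except control replicate 1. S100A8 (log2 fold change 0.01) and KLK6 (-0.42) were not called.

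**Figure D4:**
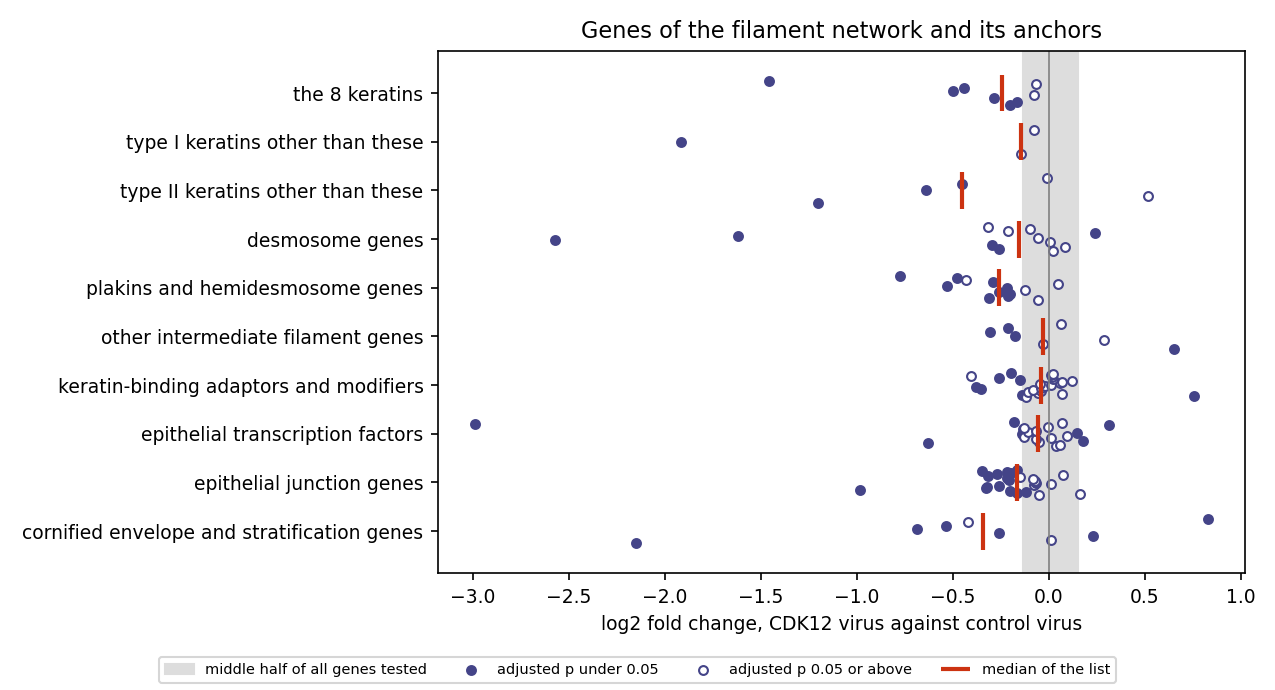
Log2 fold change of CDK12 against control virus (horizontal axis) for each tested gene of the lists (rows), filled where the adjusted p was under 0.05, with the list median as a red bar and the middle of all genes tested, from the 25th percentile (-0.13) to the 75th (0.15), in grey. Left of the grey band lie the medians of the 8 keratins (-0.24), the plakin and hemidesmosome list (-0.26) and the cornified envelope list (-0.34). So do those of the other type I (-0.14) and type II (-0.45) keratins, the desmosome list (-0.16) and the junction list (-0.17). Medians of the other intermediate filament, adaptor and transcription factor lists lie inside it. KRT17, DSG1, DSC1, TP63 and IVL are in these medians, though the filter admitted them only through the controls.

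Genes whose libraries varied most like the abundant keratins were found by the root-mean-square difference of centred log2 CPM over the 6 libraries, among 9178 genes at 10 CPM or more. For KRT8 they were CTDSPL, TUFT1 and CAMKK2, at 0.010 to 0.013, beside a median of 0.11 over these genes. For KRT18 they were PSMC5, ENO1 and NDUFA10 (0.013 to 0.014), for KRT7 CLU, HARS and PIGT (0.013 to 0.017) and for KRT19 SS18L1, SSBP3 and RBM23 (0.010 to 0.013). All values rest on the same 6 libraries, and the step between the groups is part of each.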

How the data were processed

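The authors' deposited files hold raw read counts per gene symbol, 1 file for each of 6 libraries. CASAVA 1.8, STAR 2.6.0c, featureCounts, Subread 1.6.2 and build hg19 are named per the submitters' processing notes. The annotation, the strand setting and any batch: not given in the sources used here. Genes were filtered with filterByExpr (minimum count 10, total 15), scaled by TMM and compared by the quasi-likelihood F test of edgeR 4.0.16 with group as the only term, two-sided, with Benjamini-Hochberg adjustment across the 14665 genes that passed. SE is the log2 fold change over the square root of F. A count of 0 allows up to 3 counts, 0.112 to 0.144 CPM per library (counting error only). Ratios used counts + 0.5. Alternatives were other scalings and filters, DESeq2 1.42.0, limma-voom (limma 3.58.1), a replicate block and each library left out. Named were the 8 keratins, CDK12, all other tested keratins, every tested member of lists of up to 10, up to 6 called members per direction (smallest p) of longer lists, and the 3 genes most like each abundant keratin. The members and lists were chosen with earlier results of these data known. Transcript lengths came from GENCODE 29 on GRCh38. For each gene the transcript was picked by best principal rank, then longest coding sequence, then shortest length. RefSeq promoter sequences (KRT8 only of the 8) were not used. The values of 1 gene that the naming rule takes are not reported here.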

Additional observations from a re-analysis of the deposited data

How the results depend on the processing

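Over 14 alternatives (13 for KRT17, which the filter of 1 CPM leaves out) none of the 8 keratins changed direction or side of the threshold. KRT8 ran from -0.21 to -0.16, KRT18 from -0.19 to -0.13, KRT7 from -0.31 to -0.24, KRT80 from -0.52 to -0.46, KRT81 from -0.50 to -0.40, KRT17 from -1.54 to -1.37 and KRT15 from -0.09 to -0.02 on the log2 scale. The summed keratin level moved from -0.20 to -0.16 with upper-quartile factors and to -0.15 with total counts, which raised the median of all genes by 0.04. Higher genes made up 46.1% of all calls with TMM, 59.6% with upper-quartile factors and 61.7% with total counts. Same-numbered libraries did not deviate together (correlations -0.07, 0.06 and 0.03, beside -0.09 to 0.06 for other pairs). The numbers thus gave no sign of pairing, which such a check cannot exclude. With the replicate block 6 keratins were lower, and 2330 genes higher and 2776 lower against 2371 and 2772. Depth limits KRT17 and, less, KRT15 and KRT81. Counts of called genes in the other lists moved by over 1.5 times, or between none and some, in 35 checks, nearly all of them counts of higher genes. The remaining 343 checks did not move by that measure or, for the added ratios, stayed within the SD between libraries.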
